A study of Mus musculus with 12 samples.

Results

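Short T cell receptor beta chains were described in CD8 T cells of tumor-bearing mice: the beta (TRBC) clonotypes whose CDR3, the most variable of the loops that determine binding, had from its cysteine (C) to its phenylalanine (F) 11 or fewer amino acid residues. A clonotype is 1 nucleotide sequence of the CDR3 together with its V and J genes, and its size is its number of unique molecular indices (UMIs, tags that mark original cDNA molecules) seen in at least 3 reads. Of 968040 TRBC clonotypes listed over 12 libraries without an undetermined residue, 52659 (5.44%) were short by this rule, and 726 further clonotypes with an undetermined residue were left out. The short clonotypes comprised 43040 distinct combinations of V, J and nucleotides and 20467 distinct amino acid sequences, and 99.5% of them ran from C to F.

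The libraries came from wild-type C57BL/6J mice, 6 to 8 weeks old, that carried tumors of MTCQ1-2 (Q1-2), a syngeneic mouse line of head and neck cancer that arose in the tongue. Mice received control IgG, IL-10-Fc (interleukin-10 fused to an antibody Fc part), αCSF1R (a blocking antibody against the colony-stimulating factor-1 receptor of macrophages) or BF10 (a mouse IgG2a anti-CSF-1R antibody with human IL-10 at the C terminus of its heavy chain). The labels give an equivalent dose of 30 mg/kg for all components, 3 doses in all, 3 days apart, while the methods of the study give doses that differ by agent. CD8 T cells were isolated with microbeads from tumor, spleen and tumor-draining lymph node (tdLN), and the RNA of 3 mice was mixed for each of the 12 libraries (4 treatments in 3 tissues, 1 library each), so treatments have no replicate and the 4 libraries of a tissue differ in treatment. The files hold receptor chains only, so the CD8 label could not be checked against marker genes. The titles of the tumor and spleen libraries name CD8 and those of the tdLN libraries do not, although the cell type given for all 12 is CD8 T cells. The tumor libraries stood apart in size: the αCSF1R and control IgG tumors listed 2484 and 9435 TRBC clonotypes, against 54716 to 151384 in the other 10 libraries, and the TRBC UMI totals ran from 32775 in the αCSF1R tumor to 210520 in the αCSF1R tdLN. All intervals given below are 95% Wilson intervals unless named otherwise and cover counting error only.

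The beta CDR3 is the loop of the receptor that lies over the peptide held by the MHC molecule. It is assembled in the thymus by joining a Trbv, a Trbd and a Trbj gene: bases are trimmed from the gene ends, and terminal transferase adds untemplated bases at the joins. A short CDR3 therefore has lost more of its germline bases, carries fewer bases between V and J, or joins genes that encode few CDR3 residues, and chains with few added bases are known to be made again and again in different animals.

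The sequences on which the results turn are given first. The short CDR3 with the most UMIs was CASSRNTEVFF joined from Trbv17 (GRCm38, chr6:41163062-41163556, plus strand) and Trbj1-1 (chr6:41533864-41533911, plus strand). The germline ends of these genes that fall in a CDR3 are shown first, for comparison with 7 nucleotide versions of this CDR3 that had at least 50 UMIs over the 12 libraries, in the order of their UMIs. Lower-case letters match the germline V gene from the left or the germline J gene from the right, and capitals mark the bases between these matches.
Trbv17 germline: tgtgctagcagtagaga
Trbj1-1 germline: caaacacagaagtcttcttt
version 1: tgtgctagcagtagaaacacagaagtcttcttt
version 2: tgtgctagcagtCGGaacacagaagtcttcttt
version 3: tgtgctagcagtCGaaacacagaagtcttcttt
version 4: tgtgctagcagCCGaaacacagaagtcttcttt
version 5: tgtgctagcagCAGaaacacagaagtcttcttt
version 6: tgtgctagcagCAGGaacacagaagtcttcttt
version 7: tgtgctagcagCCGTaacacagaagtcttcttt
Version 1 has 0 bases between its matches: 15 bases of Trbv17 meet 18 bases of Trbj1-1. The other 6 versions shown carry 2 to 4 bases there, all within the codons of the second serine and the arginine, and encode the same 11 residues.

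The other short clonotypes that held at least 0.1% of the TRBC UMIs of a library are shown next, each with the library in which it did so, because they are the expanded short chains of the series.
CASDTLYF (Trbv17, Trbj1-3; control IgG tumor): tgtgctagcGatacgctctatttt
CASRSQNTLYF (Trbv13-1, Trbj2-4; control IgG tumor): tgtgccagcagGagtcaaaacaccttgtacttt
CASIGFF (Trbv19, Trbj1-1; control IgG tumor): tgtgccagcaTCGGAttcttt
11 residues (Trbv13-1, Trbj1-2; αCSF1R tumor): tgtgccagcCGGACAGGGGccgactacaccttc
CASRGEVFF (Trbv19, Trbj1-1; αCSF1R tumor): tgtgccagcagAGGagaagtcttcttt
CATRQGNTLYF (Trbv29, Trbj2-4; αCSF1R tumor): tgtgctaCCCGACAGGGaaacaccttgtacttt
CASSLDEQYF (Trbv12-2, Trbj2-7; αCSF1R tumor): tgtgccagctctctcGatgaacagtacttc
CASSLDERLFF (Trbv29, Trbj1-4; BF10 tdLN): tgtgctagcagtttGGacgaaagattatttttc

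Most short chains lay just under the length limit. Of the 52659 short clonotypes, 42063 (79.9%) had 11 residues and 8613 (16.4%) had 10, so these lengths made up 96.2% of them. Only 1264 had 9 residues and 516 had 8. Just outside the limit stood 109194 clonotypes of 12 residues (11.3% of TRBC clonotypes, against 4.35% with 11), and the most frequent length was 14 residues, with 300705 clonotypes. The 719 clonotypes with 8 or fewer residues were less often complete: 676 of them (94.0%) ran from C to F. Among those complete ones, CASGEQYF with Trbv13-2 and Trbj2-7 was listed in the most libraries (8, with 28 UMIs in 4 nucleotide versions), followed by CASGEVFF with Trbv13-2 and Trbj1-1 (6 libraries, 10 UMIs).

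**Figure D1:**
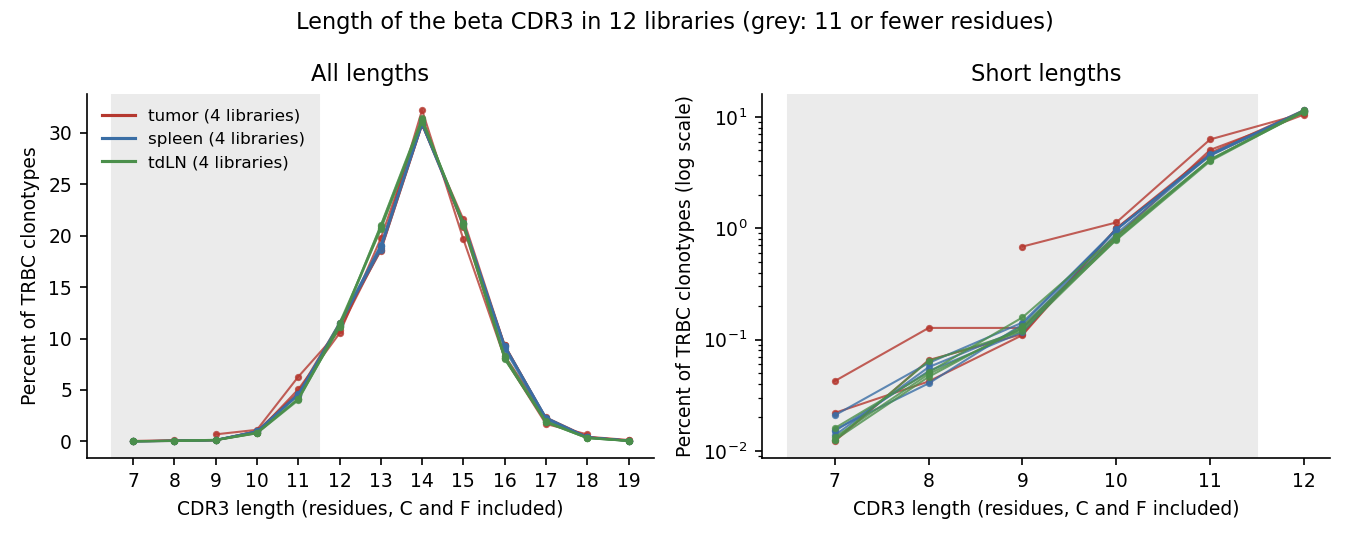
Percent of the TRBC clonotypes of each library (y axis, log scale on the right) by CDR3 length in residues (x axis), 1 line per library, coloured by tissue, with lengths of 11 or fewer residues in grey; lengths with 0 clonotypes in a library have no point on either panel. Every library peaks at 14 residues, and at 11 residues the 4 tdLN lines (4.01% to 4.15%) lie below the spleen lines (4.49% to 4.61%).

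Short chains made up a smaller share of the clonotypes in tdLNs than in spleens and tumors. The short share was 5.10% of clonotypes in the tdLN of mice given control IgG, 5.19% with IL-10-Fc, 5.18% with αCSF1R and 4.98% with BF10. The spleens gave 5.76%, 5.81%, 5.67% and 5.61% in the same order of treatments. The tumors gave 6.19%, 5.93%, 8.09% and 5.75%. All 4 tdLNs lay below all 4 spleens and all 4 tumors, whereas tumors and spleens overlapped. The 4 libraries of each tissue were listed and numbered as a set of their own. Tissue therefore cannot be told apart from any difference in handling between these sets. The mean was 5.11% ± 0.0949 (SD, n = 4) in tdLNs, 5.71% ± 0.0913 (SD, n = 4) in spleens and 6.49% ± 1.08 (SD, n = 4) in tumors. Spleens exceeded tdLNs by 0.597 percentage points and tumors exceeded tdLNs by 1.38 (two-sided exact permutation tests of 4 against 4 libraries, each p = 0.0286, the smallest these can give, and p = 0.0429 after Benjamini-Hochberg adjustment over 6 tests). Tumors exceeded spleens by 0.779 points, which did not pass the test (exact permutation p = 0.0857, adjusted p = 0.0857). Without the αCSF1R tumor library, tumors exceeded tdLNs by 0.842 points (exact permutation p = 0.0286, adjusted p = 0.0429) and spleens by 0.245 points (exact permutation p = 0.114, adjusted p = 0.114).

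The difference between spleens and tdLNs was 0.603 points at the clonotype numbers expected at the smallest library total, and 0.516 over distinct amino acid sequences. In the BF10 and αCSF1R tdLNs 8.26% and 10.4% of UMIs had at least 7 reads, against 35.3% to 69.6% in the other 10 libraries, and with those UMIs alone the difference was 0.641 points. V and J use moved with it. The short share expected from each library's V-J pairs, with the pair rates of all libraries, was 5.55% ± 0.0478 (SD, n = 4) in spleens and 5.31% ± 0.0519 (SD, n = 4) in tdLNs, and after standardisation for V-J pair the difference was 0.357 points (exact permutation p = 0.0286, adjusted p = 0.0429), an alternative chosen after the data were seen. Because the 3 tissues of a treatment bear the same treatment, the pairing by treatment was tried too, and with 4 pairs the exact sign-flip test cannot go below p = 0.125.

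The high share of the αCSF1R tumor rests on few clonotypes: 201 short of 2484, with an interval from 7.08% to 9.23%. In that library 51 of the 201 short clonotypes (25.4%) were 1 base from a clonotype of the same V and J with at least 10 times their UMIs, against 14.1% of its longer clonotypes, and in the control IgG tumor the values were 12.0% and 7.33%. In the other 10 libraries 0.0855% to 0.762% of short clonotypes had such a larger neighbour. Leaving these out brought the αCSF1R tumor to 7.10% and the control IgG tumor to 5.90%, and tumors then exceeded tdLNs by 1.06 points (exact permutation p = 0.0286, adjusted p = 0.0429). Whether such neighbours are sequencing errors was not tested.

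Counted by UMIs, the share of short chains was highest in the 2 tumors with the fewest clonotypes. It was 9.87% of TRBC UMIs in the control IgG tumor and 11.4% in the αCSF1R tumor, against 6.0% with IL-10-Fc and 6.13% with BF10. Spleens ranged from 5.75% to 6.04% and tdLNs from 5.11% to 5.45%. Tumors exceeded tdLNs by 3.09 points and spleens exceeded tdLNs by 0.626 points (each exact permutation p = 0.0286, adjusted p = 0.0429), and tumors exceeded spleens by 2.46 points without passing the test (exact permutation p = 0.0571, adjusted p = 0.0686). The UMI share of the control IgG tumor turned on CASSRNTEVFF with Trbv17 and Trbj1-1: without this CDR3 it was 4.62%, below every tdLN. The other tumors moved less, to 5.66% with IL-10-Fc, 9.62% with αCSF1R and 6.0% with BF10. Without this CDR3 the difference between tumors and tdLNs was 1.24 points (exact permutation p = 0.314, adjusted p = 0.377). That between spleens and tdLNs was 0.661 points (exact permutation p = 0.0286, adjusted p = 0.0571).

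**Figure D2:**
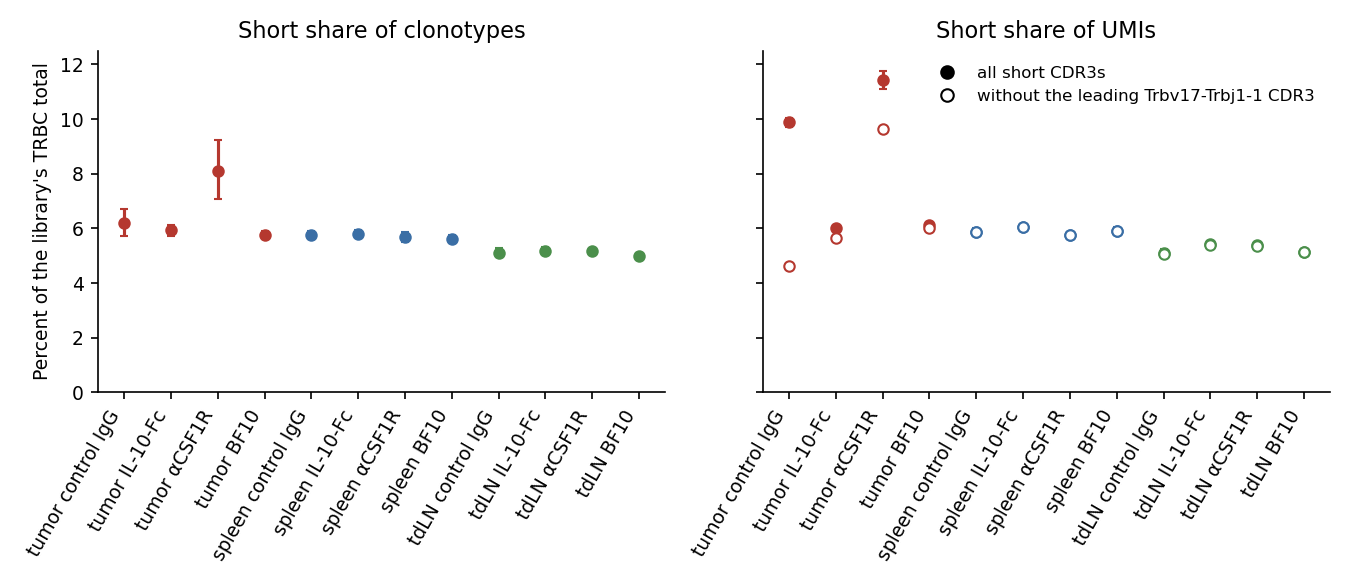
Short CDR3s as a percent of TRBC clonotypes (left) and of TRBC UMIs (right) in each library, with 95% Wilson intervals of counting error; open circles on the right leave out the 11-residue CDR3 of Trbv17 and Trbj1-1 that had the most UMIs. The 4 tdLN libraries lie lowest among clonotypes (4.98% to 5.19%), and the control IgG tumor moves from 9.87% to 4.62% of UMIs without that CDR3.

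Between treatments there was 1 library per tissue, so the differences have no replicate check. In tumors, BF10 minus control IgG was -0.443 points of clonotypes (95% normal-approximation interval -0.953 to 0.0663), IL-10-Fc minus control IgG was -0.261 (-0.786 to 0.264) and αCSF1R minus control IgG was 1.90 (0.725 to 3.08). The BF10 difference turned to 0.0543 points at a limit of 10 residues and to 0.281 at 12. By UMIs the BF10 tumor (6.13%) and the IL-10-Fc tumor (6.0%) lay below the control IgG tumor (9.87%) and the αCSF1R tumor above it (11.4%), with intervals that do not overlap. Without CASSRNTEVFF of Trbv17 and Trbj1-1 the order of BF10 and control IgG turned, at 6.0% and 4.62%. In spleens and tdLNs the shares of clonotypes of the 3 agents lay within 0.150 points of control IgG, and the intervals of all 6 differences included 0. By UMIs, the tdLN shares exceeded that of control IgG by 0.337 points with IL-10-Fc (interval 0.177 to 0.498) and by 0.279 points with αCSF1R (0.124 to 0.435), while the intervals of the tdLN with BF10 and of the 3 spleens included 0.

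Short and longer clonotypes drew on different V genes. Of 24 Trbv genes with at least 100 clonotypes, 17 (70.8%) differed in their share of short against longer clonotypes at an adjusted p under 0.05 (exact sign-flip permutation test over 12 libraries, Benjamini-Hochberg over the 24 genes). The 3 tissues of a treatment may come from the same mice, which the labels do not number. Over the 4 treatment means, where the exact sign-flip permutation p cannot go below 0.125, 0 Trbv and 0 Trbj genes passed. Of the 24, 8 (33.3%) were higher among short clonotypes and 9 (37.5%) lower. These shares are parts of a whole, so rises and falls are not independent of each other. The largest rises were those of Trbv30, with 0.898% ± 0.185 of short and 0.326% ± 0.0550 of longer clonotypes (SD, n = 12), a mean log2 ratio of 1.51, and of Trbv20, with 3.58% ± 0.949 and 1.78% ± 0.404 (SD, n = 12), a mean log2 ratio of 1.01. Both were higher among the short in 12 of 12 libraries (exact permutation p = 0.000488, the smallest the test can give, adjusted p = 0.000977). Trbv29 (log2 ratio 0.71) and Trbv13-1 (0.47) followed, with the same p and also higher in 12 of 12 libraries. Trbv29 was the most used V gene of the short clonotypes, at 17.1% ± 5.19 (SD, n = 12) of them against 10.3% ± 2.52 (SD, n = 12) of longer ones. The largest falls were those of Trbv2 (mean log2 ratio -1.44), Trbv5 (-1.38), Trbv1 (-1.25) and Trbv3 (-0.97), each lower among the short in 12 of 12 libraries (exact permutation adjusted p = 0.000977). Trbv17 itself did not pass (mean log2 ratio 0.09, exact permutation adjusted p = 0.670) and was higher among the short in 2 of 12 libraries, the control IgG and αCSF1R tumors, with log2 ratios of up to 1.89. Among Trbv30 clonotypes 14.5% were short, and among Trbv5 clonotypes 2.13%.

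The J genes were divided more sharply. All 12 Trbj genes (100%) differed at an adjusted p under 0.05 in the same test over 12 libraries: 2 (16.7%) were higher and 10 (83.3%) lower among short clonotypes. Because the shares of the genes sum to 100%, the 2 rises lower the other shares together. That each of the 10 fell is therefore not a separate result. The falls differed in size, with mean log2 ratios from -0.47 for Trbj2-4 to -2.40 for Trbj1-6. The 2 that rose were Trbj2-7, at 41.7% ± 4.23 of short and 19.5% ± 0.729 of longer clonotypes (SD, n = 12), and Trbj1-1, at 18.5% ± 6.12 and 8.60% ± 0.638 (SD, n = 12). Their mean log2 ratios were 1.09 and 1.05, above 0 in 12 of 12 libraries (exact permutation adjusted p = 0.000533). Of the 10 that fell, Trbj1-6 had the largest fall, from 2.91% ± 0.378 of longer to 0.539% ± 0.217 of short clonotypes (SD, n = 12; mean log2 ratio -2.40), followed by Trbj2-2 (-1.83) and Trbj2-3 (-1.57), all with an exact permutation adjusted p of 0.000533. The pair of Trbv29 and Trbj2-7 alone held 3861 short clonotypes, 7.33% of them, against 1.70% of longer clonotypes.

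The order of the genes followed, in part, how many CDR3 bases each encodes in the germline. Trbj2-7 encodes the fewest of the J genes (19 bases from its start to the phenylalanine codon) and Trbj1-6 the most (25), and the shares of their clonotypes that were short were 11.2% and 1.20%, the highest and the lowest. Across the 12 Trbj genes, Spearman's rho between germline bases and the percent of clonotypes that were short was -0.74 (Pearson's r -0.74), and across the 22 Trbv genes with at least 1000 clonotypes it was -0.52 (r -0.63). These are descriptions across genes, which share all libraries and their pairing with each other. There were exceptions: Trbv29 encodes 17 bases, as many as any Trbv gene described, and 9.02% of its clonotypes were short, while Trbj1-2 encodes 20 bases, as Trbj1-1 does, and 3.17% of its clonotypes were short against 9.94% for Trbj1-1. The germline CDR3 parts of these genes are printed because they show how the ends differ in length.
Trbv30: tgtagttctagaga
Trbv20: tgtggtgctaggga
Trbv29: tgtgctagcagtttatc
Trbv5: tgtgccagcagccaaga
Trbj2-7: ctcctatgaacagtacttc
Trbj1-2: caaactccgactacaccttc
Trbj1-6: ttcctataattcgcccctctacttt

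**Figure D3:**
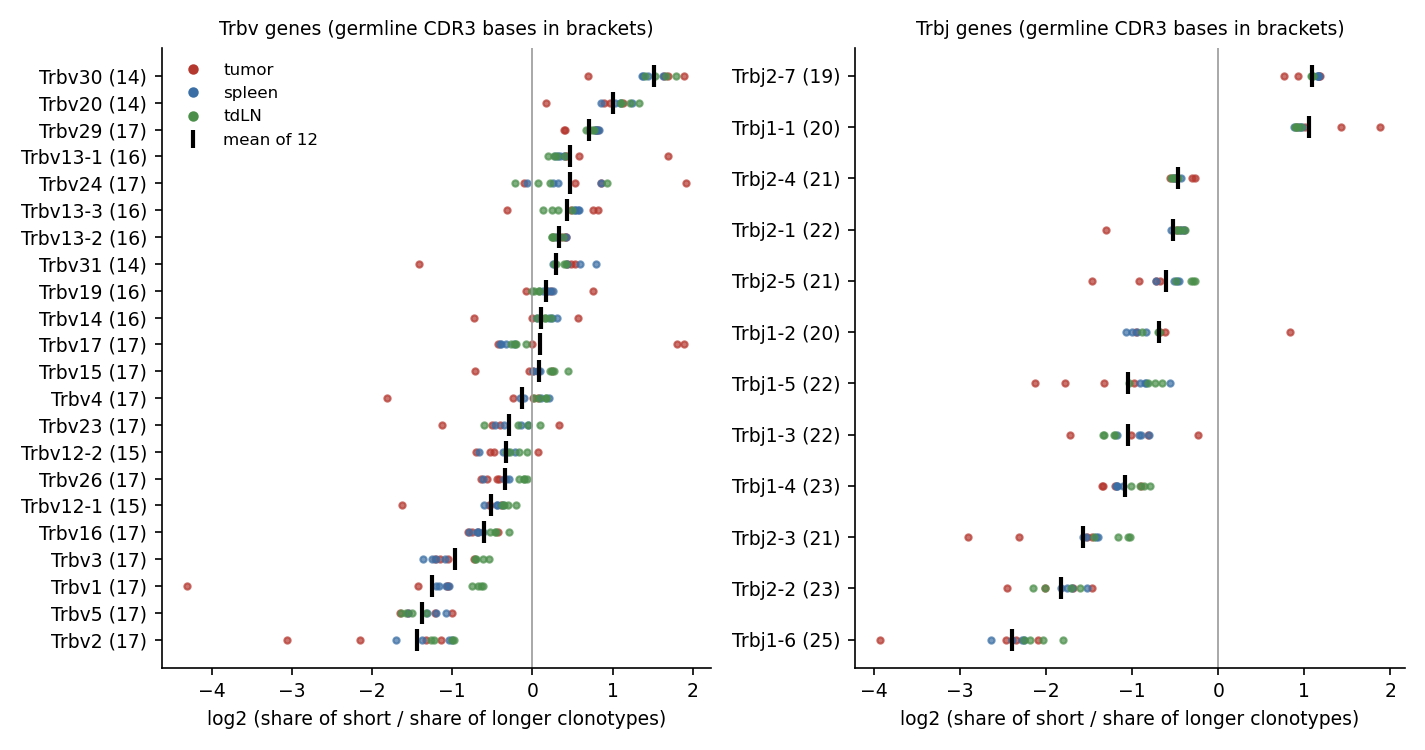
Log2 of the share of short over the share of longer clonotypes (x axis) for the 22 Trbv genes with at least 1000 clonotypes and the 12 Trbj genes (y axis, germline CDR3 bases in brackets); points are libraries coloured by tissue, and black bars are the means of 12 libraries. Trbj2-7 and Trbj1-1 are above 0 in all 12 libraries, and Trbv30 and Trbv20 lead the Trbv genes.

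Counted in bases, short CDR3s had fewer that matched the germline at both ends and fewer between them. Trimming and the choice of V and J genes were not separated in these counts. Matching each CDR3 to the germline V from the left, and then to the germline J from the right, left 12.2 ± 0.207 V bases, 14.6 ± 0.312 J bases and 5.47 ± 0.472 bases between them in short clonotypes (SD over libraries, n = 12). Longer clonotypes had 13.5 ± 0.0696 V bases, 18.2 ± 0.272 J bases and 10.5 ± 0.386 bases between (SD, n = 12). The total is set by the length rule, but its division is not: the bases between V and J and the J end made up most of the difference, and the V end the least. Joins with 0 bases between V and J were found in 5.0% ± 0.575 of short and 0.148% ± 0.0393 of longer clonotypes (SD, n = 12). A match of at least 5 bases to Trbd1 or Trbd2 was left in 31.9% ± 1.5 of short and 76.7% ± 1.03 of longer clonotypes (SD, n = 12). By length, the bases between fell from 10.2 at 14 residues to 7.12 at 12, 5.62 at 11 and 4.17 at 10 residues.

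The residues that remain in the middle of a short CDR3 differed from those of longer ones. Over the residues between the first 3 and the last 4, in short CDR3s of 9 to 11 residues, arginine made up 8.64% ± 1.70 against 5.83% ± 0.121 in longer CDR3s, tyrosine 5.81% ± 0.339 against 4.05% ± 0.159 and serine 21.9% ± 0.748 against 18.7% ± 0.157 (SD, n = 12), each higher in 12 of 12 libraries. Glycine, which the Trbd genes encode, made up 16.1% ± 0.614 against 19.4% ± 0.312, tryptophan 1.0% ± 0.0875 against 1.79% ± 0.189, and asparagine 5.27% ± 0.864 against 7.07% ± 0.217 (SD, n = 12), each lower in 12 of 12 libraries. No test was run on the 20 residues. The window holds fewer residues in short CDR3s, so the positions next to the V and J ends weigh more in it. Position and length were therefore not separated in these values. By their first 4 residues, 58.6% of short CDR3s started with CASS, against 74.5% of longer ones. The ends followed the J genes: 38.8% of short CDR3s ended in EQYF, as Trbj2-7 encodes, and 14.2% in EVFF, as Trbj1-1 encodes, against 19.3% and 8.32% of longer ones.

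Short clonotypes were listed under more than 1 treatment more often than longer ones. In tumors, 29.1% of short clonotypes with control IgG, 27.5% with IL-10-Fc, 31.8% with αCSF1R and 25.0% with BF10 were also listed, with the same V, J and nucleotides, in a library of another treatment, against 16.5%, 14.6%, 15.5% and 13.3% of longer clonotypes. Over spleens and tdLNs the range was 23.5% to 28.6% for short and 12.47% to 15.5% for longer clonotypes. No library's short share overlapped any library's longer share. The mean log2 ratio was 0.89 ± 0.066 (SD, n = 12), a ratio of 1.85, above 0 in 12 of 12 libraries (exact sign-flip permutation p = 0.000488). A shared clonotype counts in every library that lists it, so the 12 ratios are not independent of each other. Over the 4 treatment means the log2 ratio was also 0.89, where the exact sign-flip permutation p cannot go below 0.125. By length, the median share of the libraries was 27.0% at 11 residues, 26.7% at 10 and 12.1% at 9, and it fell from 21.9% at 12 residues to 4.70% at 16.

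Sharing fell as the bases between V and J rose. Among short clonotypes with 0 bases between, the median library had 76.6% also listed under another treatment, against 46.4% with 1 to 3 bases, 22.2% with 4 to 6 and 6.61% with 7 or more. Within each of these classes longer clonotypes were shared at least as often: 85.8%, 51.8%, 30.8% and 10.6%. The short share was above the longer share in 0, 1, 0 and 0 of 12 libraries, respectively. The classes were filled differently, with 27.5% of short but 2.45% of longer clonotypes at 1 to 3 bases, and 33.4% against 84.2% at 7 or more. The class of longer clonotypes with 0 bases was thin, with as few as 6 in a library.

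**Figure D4:**
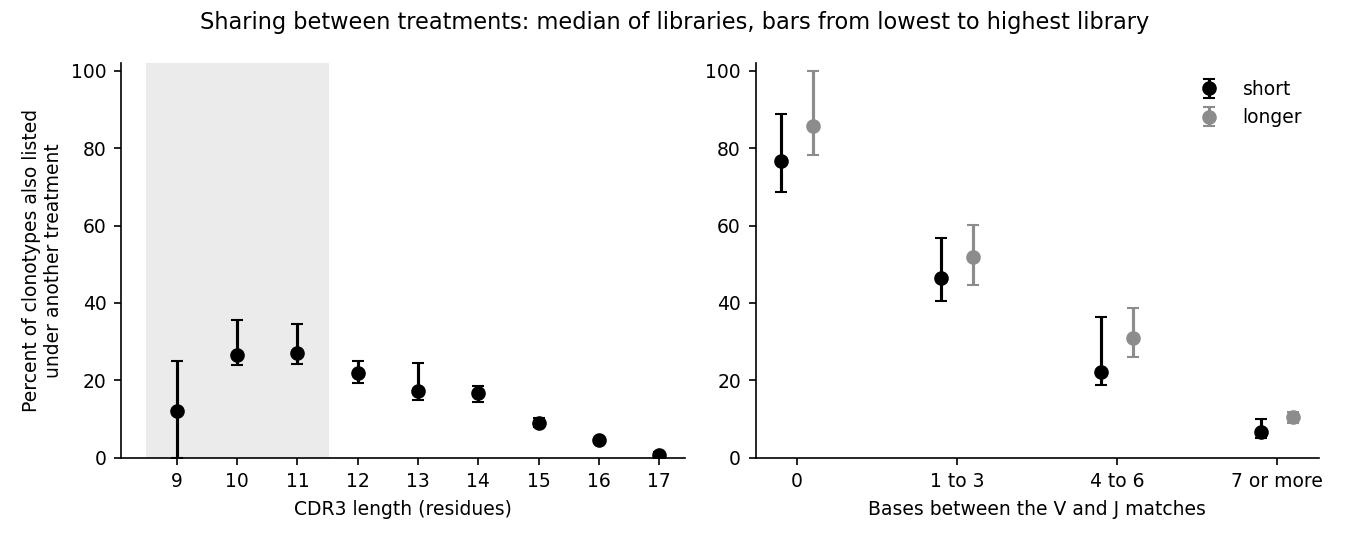
Percent of clonotypes also listed under another treatment (y axis), by CDR3 length (left, short lengths in grey) and by the number of bases between the V and J matches for short and longer CDR3s (right); points are medians of the libraries and bars run from the lowest to the highest library. At 11 residues the median is 27.0% and at 16 it is 4.70%, while at equal numbers of bases between the longer CDR3s lie at or above the short ones.

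Read as amino acid sequences without V and J, short CDR3s kept the higher sharing, at a smaller mean log2 ratio of 0.27 (exact sign-flip permutation p = 0.000488). Of 20467 short amino acid sequences, 14836 (72.5%) were listed in 1 library, while 23 were listed in all 12. The 5 leading ones were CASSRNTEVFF, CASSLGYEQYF, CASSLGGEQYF, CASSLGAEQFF and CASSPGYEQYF. Apart from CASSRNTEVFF they stayed under 0.1% of TRBC UMIs in each library: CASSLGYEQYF held 0.0258% to 0.0486% of TRBC UMIs in the 12 libraries, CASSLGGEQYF 0.0111% to 0.0519%, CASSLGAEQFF 0.0144% to 0.0323% and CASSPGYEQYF 0.00637% to 0.0793%. They were put together in many ways, with 77 nucleotide sequences and 13 V regions for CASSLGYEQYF. Within a library, 8.14% to 20.1% of short amino acid sequences were encoded by more than 1 nucleotide sequence, against 6.0% to 15.1% of longer ones, and the short value was the higher in each library.

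Short clonotypes of tumors were also looked up in tdLNs and spleens. The tdLN of the same treatment listed 9.42% of the short clonotypes of the control IgG tumor, and 9.80%, 16.4% and 11.1% of those of the IL-10-Fc, αCSF1R and BF10 tumors. The tdLNs of the other treatments listed 10.3% to 10.8%, 6.54% to 11.2%, 7.46% to 12.9% and 5.34% to 10.6% of the same clonotypes. The same-treatment value was therefore the highest in the αCSF1R tumor (33 of 201) and the BF10 tumor, inside the range of the others in the IL-10-Fc tumor, and below it in the control IgG tumor. Longer clonotypes of the same tumors were listed in the tdLN of their own treatment at 4.91%, 4.33%, 12.9% and 5.14%, against 4.60% to 5.71%, 2.65% to 4.94%, 3.99% to 5.52% and 2.51% to 4.66% in the other tdLNs, so own-treatment values were again the highest in the αCSF1R and BF10 tumors. The spleen of the same treatment listed 9.25%, 10.5%, 9.45% and 8.43% of the short clonotypes, against 7.19% to 9.76%, 6.69% to 8.63%, 5.97% to 10.9% and 5.90% to 8.97% in the other spleens, and its value was the highest in the IL-10-Fc tumor alone. The depth of the tdLN and spleen libraries differs. The αCSF1R and BF10 tdLNs listed 151384 and 151007 TRBC clonotypes, against 106215 with IL-10-Fc and 71529 with control IgG. The IL-10-Fc spleen listed 100613, the most of the spleens. For short clonotypes, the own-treatment value ranked highest where the library looked up was among the largest of its tissue. For longer clonotypes this did not hold in spleens. The own spleen listed 5.08% with control IgG, 4.72% with IL-10-Fc and 6.53% with αCSF1R. The other spleens listed 3.05% to 4.09%, 2.82% to 3.53% and 3.55% to 4.2% of these. The αCSF1R spleen listed 64339 clonotypes, the fewest of the spleens. With BF10 the own value was 3.29%, against 2.46% to 3.79%. In tdLNs, longer clonotypes of the αCSF1R tumor gave 12.9% against at most 5.52%, with the BF10 tdLN of similar size. These shares were not tested.

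In size, short clonotypes differed little from longer ones outside the tumors. In the 8 spleen and tdLN libraries a short clonotype had 1.39 to 2.44 UMIs on average and a longer one 1.35 to 2.40. The mean was 17.6 against 10.6 UMIs in the control IgG tumor and 18.6 against 12.7 in the αCSF1R tumor, and 2.40 against 2.37 and 2.07 against 1.93 in the IL-10-Fc and BF10 tumors. Over the 12 libraries the mean log2 ratio was 0.15 ± 0.24 (SD, n = 12), above 0 in 12 of 12 (exact sign-flip permutation p = 0.000488). Without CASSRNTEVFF of Trbv17 and Trbj1-1 it was 0.023 (exact permutation p = 0.565), with the control IgG tumor at 8.10 against 10.6 UMIs.

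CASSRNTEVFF with Trbv17 and Trbj1-1 was listed in all 12 libraries and was concentrated in tumors. It had 5732 UMIs in the control IgG tumor (5.51% of TRBC UMIs, interval 5.37% to 5.65%), 653 in the αCSF1R tumor (1.99%, 1.85% to 2.15%), 463 in the IL-10-Fc tumor (0.356%, 0.325% to 0.390%) and 254 in the BF10 tumor (0.145%, 0.128% to 0.164%). In tdLNs it had 70 UMIs with control IgG (0.0563%), 120 with IL-10-Fc (0.0649%), 35 with αCSF1R (0.0166%) and 40 with BF10 (0.0196%). In spleens it had 2, 9, 3 and 3 UMIs (0.00130% to 0.00540%), where a count of 0 would allow up to 3 UMIs. Every tumor lay above every tdLN and every tdLN above every spleen. The intervals of the 4 tumors do not overlap. This CDR3 was chosen for its size and its presence in all libraries, so these levels are a description with no test, and with 1 library a treatment the order of the tumors has no replicate check.

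In the control IgG tumor this CDR3 made up 55.8% of the UMIs of all short clonotypes and 59.5% of all UMIs of Trbv17, and in the αCSF1R tumor 17.4% and 37.0%. In the BF10 tumor the values were 2.37% and 3.31%. Among the 190 short CDR3s that joined Trbv17 and Trbj1-1 it held 92.0% of 8029 UMIs over the series, and the next, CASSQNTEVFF, which differs from it at 1 residue, had 77 UMIs. The levels kept with UMIs of at least 7 reads, at 5.51%, 2.09%, 0.346% and 0.157% in the control IgG, αCSF1R, IL-10-Fc and BF10 tumors.

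It was not 1 clone. The 32 nucleotide versions of it included 23 that were 1 base from a version with at least 10 times their UMIs over the series. Version 1, which needs 0 bases between V and J, was found in every tumor and every tdLN: in the order of treatments used above, it had 924, 384, 233 and 199 UMIs in the tumors and 29, 95, 11 and 23 in the tdLNs. The printed versions with more bases between were large in fewer libraries. Version 2 had 1843 UMIs in the control IgG tumor, where it was the largest short clonotype, and 1 in the IL-10-Fc tumor, 5 in the IL-10-Fc tdLN and 1 in the BF10 tdLN. Version 3 had 568 UMIs in the control IgG tumor and 0 in the other 11 libraries, and version 4 had 298 there, 15 in the control IgG tdLN and 1 in the IL-10-Fc spleen. Version 6 had 265 UMIs in the αCSF1R tumor and 9 in its tdLN, with 1, 4 and 8 in the control IgG tumor, the IL-10-Fc tumor and the IL-10-Fc tdLN. In the control IgG tumor 6 versions each held at least 0.1% of TRBC UMIs, in the αCSF1R tumor 3, and in the IL-10-Fc and BF10 tumors 1, which was version 1.

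**Figure D5:**
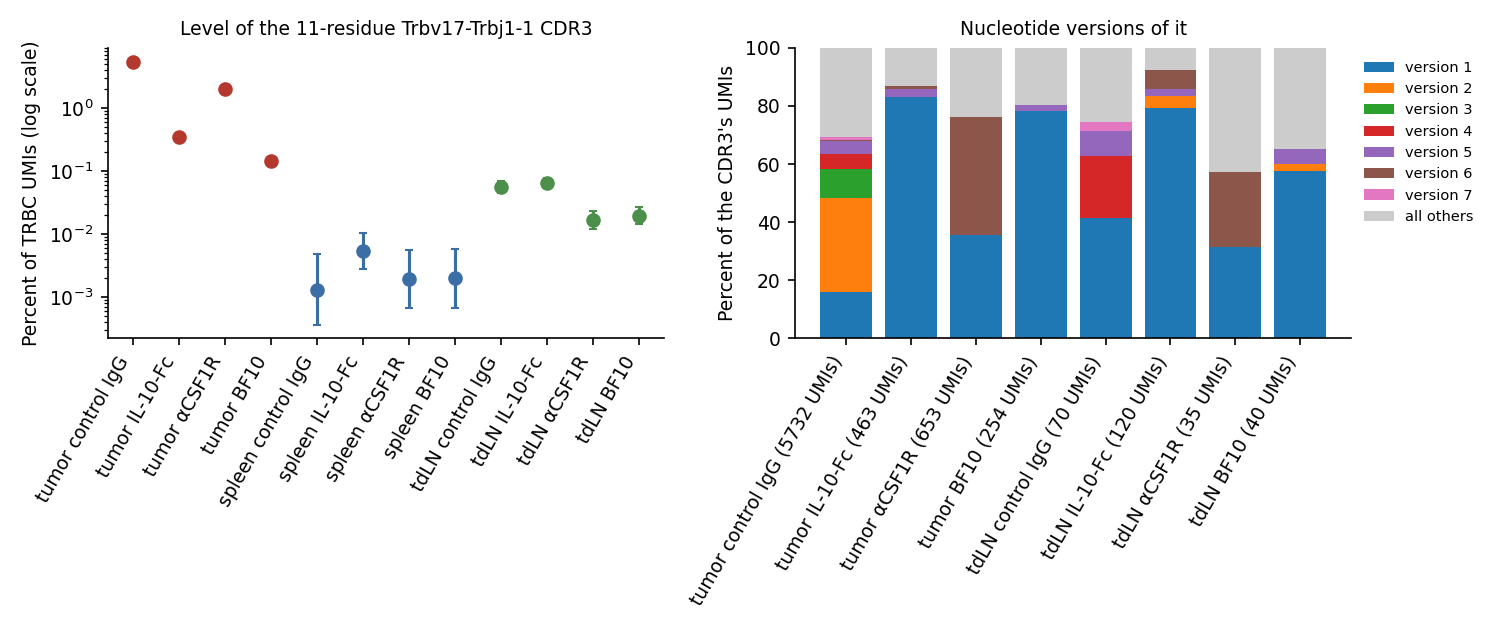
Left, percent of TRBC UMIs (log scale) held by the 11-residue CDR3 of Trbv17 and Trbj1-1 with the most UMIs in each library, with 95% Wilson intervals; right, the percent of its UMIs held by each of the 7 nucleotide versions printed in the text, in that order, and by all others together, in the tumor and tdLN libraries. The tumors lie at 5.51%, 0.356%, 1.99% and 0.145%, above all tdLNs and spleens, and version 1 leads in the IL-10-Fc and BF10 tumors (384 of 463 and 199 of 254 UMIs).

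Of the 8 other expanded short clonotypes, 5 were listed under 1 treatment and 3 under several. In the control IgG tumor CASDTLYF, of 8 residues with 1 base between Trbv17 and Trbj1-3, had 799 UMIs (0.768%) and 0 in the other 11 libraries. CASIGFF, of 7 residues, had 299 UMIs (0.288%) and was also listed nowhere else. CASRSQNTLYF had 416 UMIs (0.400%) there and 1 to 3 UMIs in the control IgG spleen and tdLN and the IL-10-Fc tdLN. In the αCSF1R tumor the 11-residue CDR3 of Trbv13-1 and Trbj1-2 printed above had 1152 UMIs (3.51%, interval 3.32% to 3.72%), the largest share of any short clonotype in the series, with 2 UMIs in the αCSF1R spleen and 0 elsewhere. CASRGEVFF had 865 UMIs there (2.64%) and 22 in the αCSF1R tdLN (0.0105%), with 0 in the other 10 libraries. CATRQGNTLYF had 80 UMIs (0.244%) in the αCSF1R tumor, 16 in its tdLN and 1 in its spleen. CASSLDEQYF, with 40 UMIs (0.122%) in the αCSF1R tumor, was listed in 9 libraries and under all 4 treatments. Together with the versions of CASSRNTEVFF, short clonotypes of at least 0.1% held 6.87% of TRBC UMIs in the control IgG tumor and 8.50% in the αCSF1R tumor, against 0.295% and 0.114% in the IL-10-Fc and BF10 tumors.

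Spleens listed 0 short clonotypes at or above 0.1% of TRBC UMIs, and among tdLNs only that of BF10 did so. There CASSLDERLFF with Trbv29 and Trbj1-4 had 212 UMIs (0.104%, interval 0.0909% to 0.119%), with 26 in the BF10 spleen, 0 in the BF10 tumor and 2 to 4 in each of the other 5 libraries that listed it. The largest short clonotypes of the other tdLNs were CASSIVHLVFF with 36 UMIs for control IgG (0.0289%), version 1 of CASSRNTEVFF with 95 for IL-10-Fc (0.0513%) and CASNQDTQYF with 56 for αCSF1R (0.0266%). Those of the spleens were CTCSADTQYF with 12 UMIs for control IgG (0.00782%), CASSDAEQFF with 12 for IL-10-Fc (0.00719%), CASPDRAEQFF with 25 for αCSF1R (0.0162%) and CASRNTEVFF with 75 for BF10 (0.0499%). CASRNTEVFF, joined from Trbv13-1 and Trbj1-1, is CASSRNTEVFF less 1 serine and carries 1 base between the matches. Of the short clonotypes listed in a tumor and in the tdLN of the same treatment, those with the most tumor UMIs included version 1 of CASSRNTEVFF with control IgG and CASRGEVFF with αCSF1R, at 0.888% and 2.64% of tumor and 0.0233% and 0.0105% of tdLN UMIs.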

How the data were processed

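RNA of CD8 T cells was made into mouse TCR libraries with a QIAseq kit that ligates a 12-base UMI and reads from the constant region. The deposited tables list, per the file headers, each library's clonotypes with V-region, J-region, CDR3 sequences, UMI counts at 5 read minimums and a frequency; the authors' frequency is a fraction, the UMIs with at least 3 reads over the total of the library and chain, and only the counts were used here. The labels name the genome build mm10; the authors analysed the data with the kit maker's online portal, whose version and settings are not given in the sources used here. UMI totals limit the precision: 3 UMIs were 0.00143% to 0.00915% of a library. All 12 libraries were grouped by tissue and treatment from the labels, and no column of per-sample values was left unassigned.

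Short clonotypes were taken as defined. Shares were compared between tissues by exact permutation of 4 against 4 libraries; short and longer clonotypes were compared within libraries by exact sign-flip permutation, for V and J use on log2 ratios with 0.5 added to each count, over genes with at least 100 clonotypes. Libraries of a tissue differ in treatment, so p-values measure the spread among them. Germline ends were read from GRCm38 chromosome 6 with GENCODE exons, up to the recombination heptamer for V and to the phenylalanine codon for J. The clonotypes named are the largest short one per library, all of at least 0.1% of TRBC UMIs, the 5 amino acid CDR3s in the most libraries and the 3 largest shared by a tumor and its tdLN; other CDR3s were named after their values were seen, and a nucleotide version of a named CDR3 is not reported here. The members, lists and tests were chosen with earlier results of these data known. Scripts ran in Python 3.11.15 with scipy 1.17.1 and were tested on simulated data. Alternatives changed the length limit, UMI and read minimums, weights, pairing and libraries.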

Additional observations from a re-analysis of the deposited data

Results flagged for a closer look

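The share of TRBC UMIs held by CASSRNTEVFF with Trbv17 and Trbj1-1 was 0.00540% in the IL-10-Fc spleen (9 UMIs, interval 0.00284% to 0.0103%). The other 3 spleens had 2 or 3 UMIs each, up to 0.00200%. Their intervals, with upper ends of 0.00475% to 0.00587%, overlap that of the IL-10-Fc spleen. It was the 1 library to stand apart by Dixon's test among 21 groups of 4 libraries (7 measures in 3 tissues), and chance flags about 1 in 20 groups.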

How the results depend on the processing

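Tissue differences kept their direction under all alternatives, but with 4 against 4 libraries a call after adjustment over 6 tests needs 4 tests at the smallest p. At 10 or fewer residues the differences from tdLN were 0.307 (tumor) and 0.138 (spleen) points of clonotypes and 0.787 and 0.138 of UMIs, and with at least 2 UMIs per clonotype 0.933, 0.437, 2.90 and 0.488 (adjusted p = 0.0571 to 0.129 by exact permutation). Pairing by treatment, where p cannot go below 0.125, left 1.38, 0.597, 3.09 and 0.626 points uncalled. Leaving out each treatment in turn (smallest exact permutation p 0.1) gave 0.864 to 1.59, 0.579 to 0.633, 2.10 to 3.93 and 0.576 to 0.714 points. Without the αCSF1R tumor, tumors exceeded spleens by 0.245 points of clonotypes. Without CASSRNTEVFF of Trbv17 and Trbj1-1, chosen after seeing the data, UMI differences from tdLN were 1.24 and 0.661 points, and the log2 ratio of UMIs per clonotype was 0.023; by construction, only this CDR3 is removed.

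Leaving out each treatment in turn gave log2 ratios of 0.95 to 1.0 for sharing and 0.11 to 0.18 for UMIs per clonotype, 14 to 18 Trbv genes and 12 Trbj genes. As means over the 3 tissues of each treatment (4 values, p at least 0.125 by exact permutation), the log2 ratios of sharing (0.89) and of UMIs per clonotype (0.15) were unchanged and uncalled, and 0 Trbv and 0 Trbj genes were called. Of the 13 Trbv and Trbj genes named, all kept their direction in 130 alternatives, and Trbv20 by UMIs was the 1 case besides those means to lose its call (log2 ratio 0.60, adjusted p = 0.0979 by exact permutation). BF10 minus control IgG in tumors moved from -3.74 points of UMIs to -0.42 at 10 or fewer residues, -2.56 at 12 or fewer and 1.38 without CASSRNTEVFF, and from -0.44 points of clonotypes to 0.054 at 10 or fewer and 0.28 at 12 or fewer residues; the cause was not tested.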
